A study of Mus musculus with 2 samples.

Results

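Conventional type 1 dendritic cells (cDC1) were picked out of single-cell RNA-seq data of B16 melanoma tumours by the transcripts of their 2 surface receptors, Xcr1 and Clec9a. Members were selected on these measured UMIs, and a barcode was taken as a cDC1 when it had at least 200 genes, at most 10% of its UMIs from mitochondrial genes, 2 or more UMIs (unique molecular identifiers, each standing for 1 captured transcript) of Xcr1 and Clec9a together, no UMI of Ccr7 or of the Cd3d, Cd3e and Cd3g chains, at most 10 C1q UMIs per 10000 and fewer than 100 S100a8 and S100a9 UMIs per 10000. This gave 152 members among 13818 kept barcodes of 14341 in all, with 85 members in the WT library and 67 in the KO library. The WT mice were Mettl3 fl/fl Lyz2 +/+ and the KO mice Mettl3 fl/fl Lyz2 cre/+, all 8 weeks old and bearing B16 tumours, a transplanted mouse melanoma line, and both genotypes thus carried the floxed Mettl3 allele. Live CD45+ cells, that is 7-AAD-negative leukocytes, were sorted from digested tumours of pooled mice and made into 1 library for each genotype with Chromium v3 reagents, which read the 3′ ends of transcripts. Lyz2-driven Cre is active mainly in macrophages, monocytes and granulocytes and in few dendritic cells, and Mettl3 encodes the catalytic subunit of the enzyme that writes N6-methyladenosine (m6A) on mRNA. With 1 library per genotype there is no spread between mice, no test was possible, and every interval below is a 95% interval of counting error.

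cDC1 are the dendritic cells specialised in cross-presentation, in which antigen taken up from dead cells is loaded on MHC class I for CD8+ T cells. They develop under the transcription factors IRF8, BATF3 and ID2 and the growth factor FLT3L, they follow the chemokine XCL1 of NK cells and activated T cells through XCR1, and they sense dead cells through CLEC9A (DNGR-1). In tumours they are known as the cells that carry tumour antigen to T cells and that secrete IL-12 and CXCL9.

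Mettl3 gave few UMIs in cDC1. In the WT members 6 UMIs were counted, 5.68 (2.08 to 12.4) per 1000000 UMIs (CPM), and in the KO members 8, or 10.5 (4.54 to 20.7) CPM. The level in the KO library was thus not lower, and in macrophages gated on C1q it was 10.1 and 10.9 CPM. Counts from 3′ ends carry no position along the transcript, so they say nothing on the loss of a floxed exon and check neither label, and WT and KO below name the libraries as labelled. Lyz2, the lysozyme gene into which the Cre cassette is inserted, was at 909 (852 to 968) CPM in WT cDC1 and at 438 (392 to 488) CPM in KO cDC1, and the log2 ratio of KO over WT was -1.05 (-1.24 to -0.87). Lyz2 was also lower in the KO library in macrophages (6175 and 2767 CPM) and in T cells (1431 and 663 CPM), so the difference was not particular to cDC1.

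The members' identity was described by markers that the rule had not used, though these markers were chosen with earlier results of these data known. Wdfy4, a gene required for cross-presentation, stood at 613 CPM in WT and 653 CPM in KO members. In the other dendritic gates Wdfy4 was at 108 and 126 CPM (2 or more UMIs of Cd209a, a type 2 marker), at 8.31 and 13.8 CPM (2 or more UMIs of Ccr7 with Fscn1, mature cells) and at 64.2 and 86.7 CPM (2 or more UMIs of Siglech, plasmacytoid cells). Barcodes with a UMI of Xcr1 or Clec9a were left out of the Cd209a gate, and of the macrophage and T cell gates. Those with 2 or more were left out of the Siglech gate, whereas the Ccr7 gate had no such limit. Contrasts with the limited gates are thus partly set by the genes of the rule. Naaa, a lysosomal amidase, stood at 1997 and 2148 CPM in cDC1, against 613 and 550 CPM in the Cd209a gate and 31.6 and 76.0 CPM in the Ccr7 gate. Itgae (CD103) was at 291 and 324 CPM in cDC1 and at 3 or fewer UMIs in every other dendritic gate. Tlr3, the endosomal sensor of double-stranded RNA, was at 215 and 221 CPM in cDC1 and at 4 or fewer UMIs there. Irf8 did not separate the gates in this way, since it was at 2074 and 2183 CPM in cDC1 but at 2964 and 3180 CPM in the Siglech gate. Batf3 was likewise shared, with 275 and 285 CPM in cDC1 and 268 and 295 CPM in the Ccr7 gate.

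**Figure D1:**
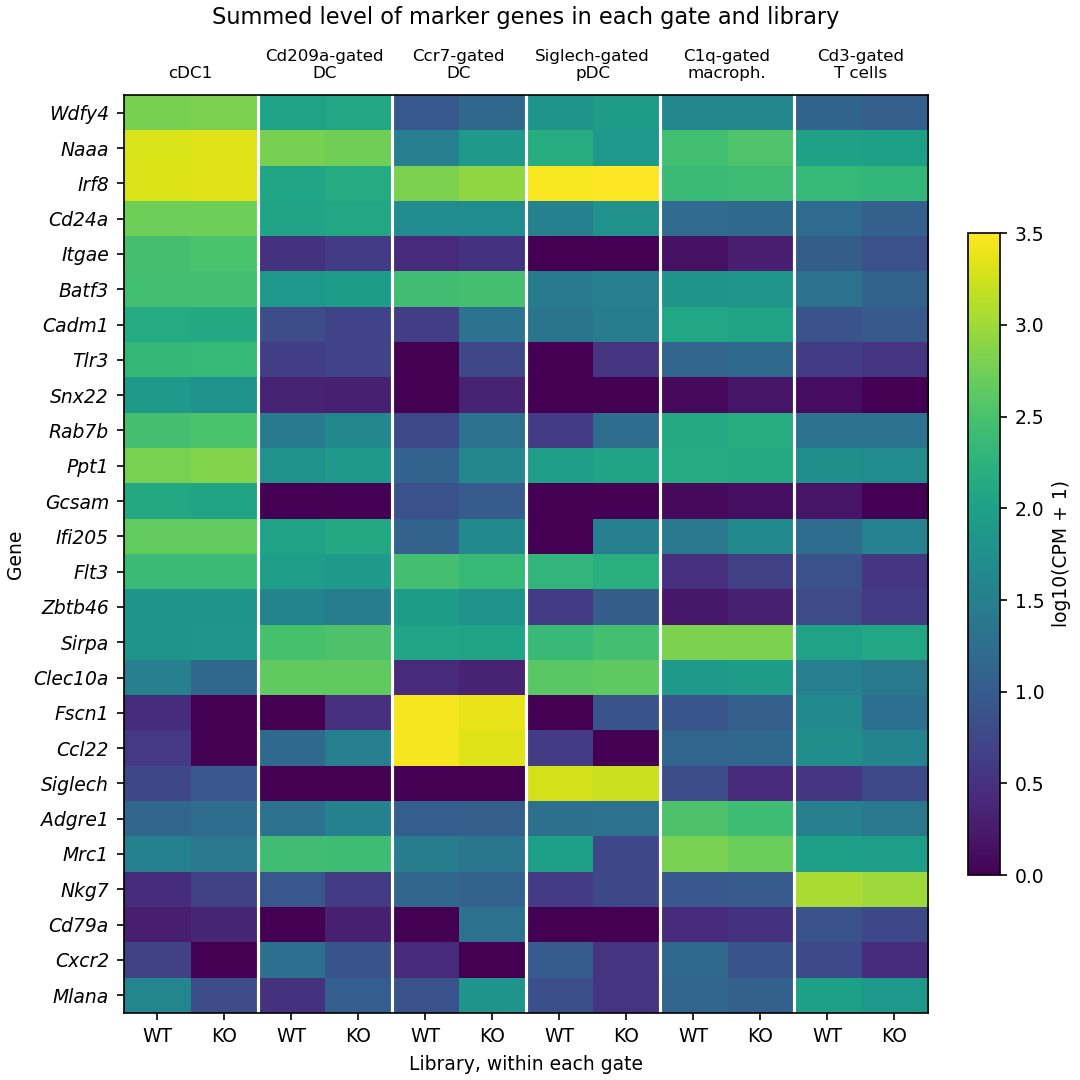
Heat map of the summed level of cDC1 markers and of markers of other cells (rows), as log10 of CPM with 1 CPM added (colour bar), in each gate for the WT and the KO library (columns). Itgae and Tlr3 are bright in the cDC1 columns only, whereas Irf8 is also bright in the Siglech gate (2964 and 3180 CPM) and Batf3 in the Ccr7 gate.

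Of 15 cDC1 markers outside the rule, a member carried a median of 12 with at least 1 UMI in either library, with a range of 1 to 14. At least 3 were found in 84 of 85 WT and 66 of 67 KO members and in 72 of 125 WT and 96 of 161 KO cells of the Cd209a gate, so this count alone does not separate them. After each barcode was thinned to 1000 UMIs, at least 3 markers were found in 92.9% and 94.0% of the members, against 4.8% and 6.21% of cells of the Cd209a gate and 0.502% and 0.718% of T cells gated on Cd3. Of the barcodes kept out by having 1 UMI of Xcr1 and Clec9a, 34.1% and 28.6% had at least 3 after thinning. The members were deeper than these T cells (median 11738 and 10484 UMIs against 2853 and 2621.5), which is why the thinned shares are given. A Wdfy4 UMI was found in 96.5% and 95.5% of the members, or 47.1% and 47.8% after thinning. In the T cells it was found in 5.01% and 4.97%, or 0.669% and 1.15% after thinning.

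Xcr1 and Clec9a chose the members, so their levels only describe the choice. The 2 genes together gave 2 to 30 UMIs per WT member, with a median of 5, and 2 to 29 per KO member, with a median of 7. Both genes were seen in 61 WT and 53 KO members, Xcr1 alone in 17 and 11, and Clec9a alone in 7 and 3. Summed over members, Xcr1 was at 389 and 505 CPM and Clec9a at 154 and 200 CPM. The 17 WT and 8 KO members at the limit of 2 UMIs had Wdfy4 at 734 and 687 CPM and Naaa at 2114 and 1913 CPM. Cst3, the cystatin C gene, was lower in them than in all members, at 21046 and 19593 CPM (28798 and 31766 in all). Tlr3 was at 148 (94.8 to 220) and 111 (40.9 to 243) CPM and Itgae at 265 (192 to 357) and 186 (89.1 to 342) CPM. These intervals include the levels of Tlr3 and Itgae in all members. The members at the limit also held 2 WT and all 6 KO UMIs of Siglech. The 43 WT and 42 KO barcodes kept out by having 1 UMI had Wdfy4 at 247 and 164 CPM and Naaa at 761 and 737 CPM. Of the barcodes with 2 or more UMIs, 10 WT and 6 KO barcodes were left out with a Ccr7 UMI, 25 and 13 with a Cd3 UMI, 51 and 36 for C1q and 2 and 0 for S100a8 and S100a9, some on several counts. No barcode sequence occurred in both libraries among the members, whereas 13 did among all barcodes.

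The 15 genes with the highest level in cDC1 over all other kept barcodes were ranked on the same barcodes and are a description of them. Itgae led with a ratio of 53.5, followed by Sept3, a septin, with 44.4. Gcsam, a signalling adaptor of germinal-centre B cells, had a ratio of 41.4. A530099J19Rik (ENSMUSG00000047462, Gpr141b in GENCODE M21) followed with 32.7 and the sorting nexin gene Snx22 with 28.2. Mycl, the MYC family member that cDC1 use, had a ratio of 25.7, at 93.7 and 85.5 CPM. Txndc16, a thioredoxin domain gene, had 22.3, and the inhibitory receptor gene Btla 22.1. Tnni2, which encodes a troponin of fast skeletal muscle, had a ratio of 16.9, and Tlr3 had 16.4. Flt3, the receptor of FLT3L, reached 15, and H2-Ob, a chain of the MHC class II chaperone H2-O, 14.4. Wdfy4 (14.4), the zinc finger gene Zfp366 (14.3) and Cd24a (14.0) closed the list. The libraries were close in most of these genes, with Sept3 at 325 and 324 CPM and Flt3 at 243 and 241 CPM. Over the alternatives run, the log2 ratio of Sept3 ranged from -0.29 to 0.08 and that of Flt3 from -0.65 to 0.09. Mycl ranged from -1.03 to 0.02 and Cd24a from -0.66 to 0.05. Tnni2 was at 158 (135 to 184) CPM in WT and 239 (206 to 277) CPM in KO members, a log2 ratio of 0.60 (0.29 to 0.91), but at -0.19 in the members free of other lineage markers.

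RNA of other cell types was unevenly spread over the members. A single WT member, also the one with the most UMIs (60748), held 718 of the 748 UMIs of 7 melanoma markers in the WT members (96.0%). The KO members had 27 melanoma UMIs, with no more than 2 in 1 member. The 12 macrophage markers gave 944 UMIs in WT and 802 in KO members, at 894 and 1055 CPM, and 5 members in each library held 56.4% and 65.1% of them. The median member had 4 and 3 macrophage UMIs. Monocyte markers were at 1161 and 1437 CPM, B cell markers at 102 and 129 CPM, granulocyte markers at 37.9 and 13.2 CPM, T cell markers at 7.58 and 23.7 CPM and NK cell markers at 7.58 and 13.2 CPM. Marker lists of other dendritic cells were at 240 and 249 CPM (type 2), 211 and 242 CPM (mature) and 70.1 and 101 CPM (plasmacytoid). Of the plasmacytoid marker UMIs 1 member held 24.3% in WT and 50.6% of 77 in KO. Of the genes that defined the other dendritic gates, Cd209a had 4 and 0 UMIs in the members, Siglech 5 and 6 and Fscn1 2 and 0. Other genes of these lists were higher in the members, such as Sirpa with 67 and 54 UMIs, Itgam with 40 and 51, Clec10a with 34 and 11, Mgl2 with 27 and 29 and Traf1 with 57 and 54. The lists of function and 53 named genes were therefore also computed without the melanoma-bearing member, without the 5 members of each library richest in macrophage RNA, and in the 37 WT and 29 KO members free of other lineage markers, meaning no Siglech UMI and fewer than 2 UMIs of T cell, NK cell, B cell, granulocyte and melanoma markers. The other genes named below were not run in this way. The filter on other lineage markers used raw counts and dropped 48 WT and 38 KO members. Ighm, of its B cell list, had 98 and 81 UMIs, spread over 54.1% and 62.7% of the members. Whether these UMIs came from other cells was not tested.

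cDC1 were a smaller share of the KO library. They made up 1.5% (1.20 to 1.85) of the kept barcodes in WT and 0.821% (0.637 to 1.04) in KO, a log2 ratio of -0.87 (-1.33 to -0.41). Among the dendritic barcodes of the 4 gates, cDC1 were 22.1% (18.1 to 26.6) in WT and 14.2% (11.2 to 17.7) in KO, a log2 ratio of -0.64 (-1.06 to -0.22). The share is thus lower in the KO library also against the other dendritic cells, beyond counting error, but mice cannot be told apart within a library. The other dendritic gates were closer between the libraries. Cells gated on Cd209a were 2.21% and 1.97% of the kept barcodes (log2 ratio -0.16, -0.50 to 0.17), those on Ccr7 1.66% and 1.68% (0.02) and those on Siglech 1.41% and 1.31% (-0.11). Counting all kept barcodes with 2 or more UMIs of Xcr1 and Clec9a, with no exclusion, gave 2.69% (2.28 to 3.14) in WT and 1.42% (1.18 to 1.70) in KO, a log2 ratio of -0.92 (-1.26 to -0.57). The CD45+ sort and the capture set these shares, which are not numbers of cells per tumour.

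**Figure D2:**
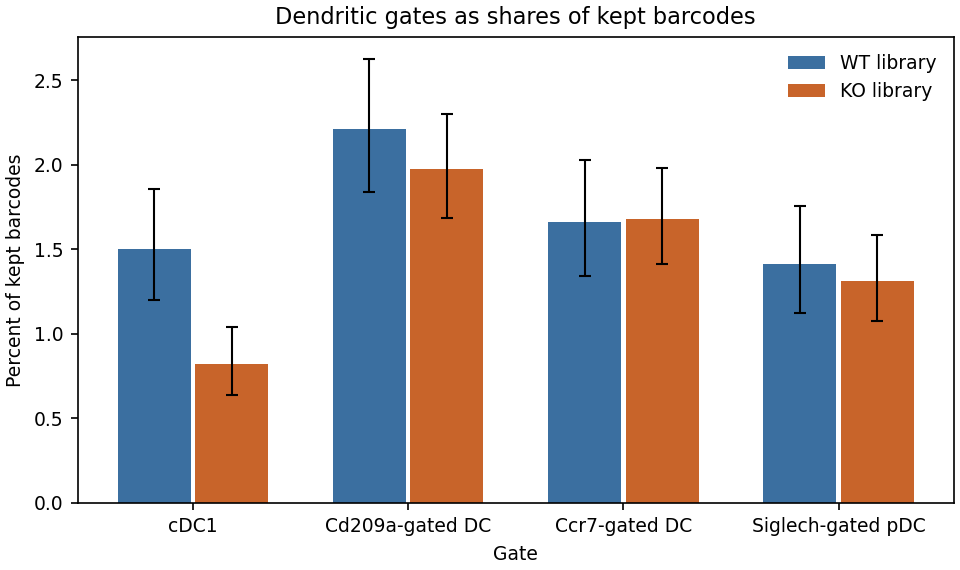
Share of kept barcodes in percent in each of the 4 dendritic gates, WT and KO, with exact Clopper-Pearson 95% intervals. The cDC1 intervals of the libraries do not overlap (1.5% and 0.821%), while those of the other gates do.

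The ligands of 2 cDC1 receptors were at higher levels in other cells. Xcl1, the ligand of XCR1, was at 0.947 and 1.32 CPM in cDC1, against 468 and 616 CPM in NK cells gated on Ncr1 and Klrb1c and 313 and 225 CPM in the T cells. Flt3l, the growth factor of dendritic cells, was at 3.79 (1.03 to 9.70) and 6.58 (2.14 to 15.4) CPM in cDC1. It was at 17.3 (6.97 to 35.7) and 32.1 (18.4 to 52.2) CPM in the NK cells and 22.2 (17.5 to 27.8) and 16.8 (13.2 to 21.2) CPM in the T cells. Within a library, the intervals of cDC1 overlapped those of the NK cells in WT and of the T cells in KO.

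Of 12714 genes with a UMI in cDC1, 2592 were measured, meaning at least 50 CPM in either library and a UMI in at least 10% of its members. The libraries were close over these genes, with a median log2 ratio of KO over WT of 0.04 and with the 5th and 95th percentiles at -0.49 and 0.54. Of the genes measured 55.5% were higher in KO, the background for the counts of list members below. Past 2-fold (on log2 of CPM with 1 CPM added, as for all ranked genes) were 21 genes higher in KO, 0.81% of those measured, and 17 lower in KO, 0.656%. In 24 of these 38 a single barcode held over 20% of the UMIs of the library with the higher level. The melanoma genes Tyrp1, Dct and Pmel were of this kind in the WT library, and so was Cul9 in the KO library, with 90.9% of its 66 UMIs in 1 barcode. Without the melanoma-bearing member 6 genes were lower in KO.

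**Figure D3:**
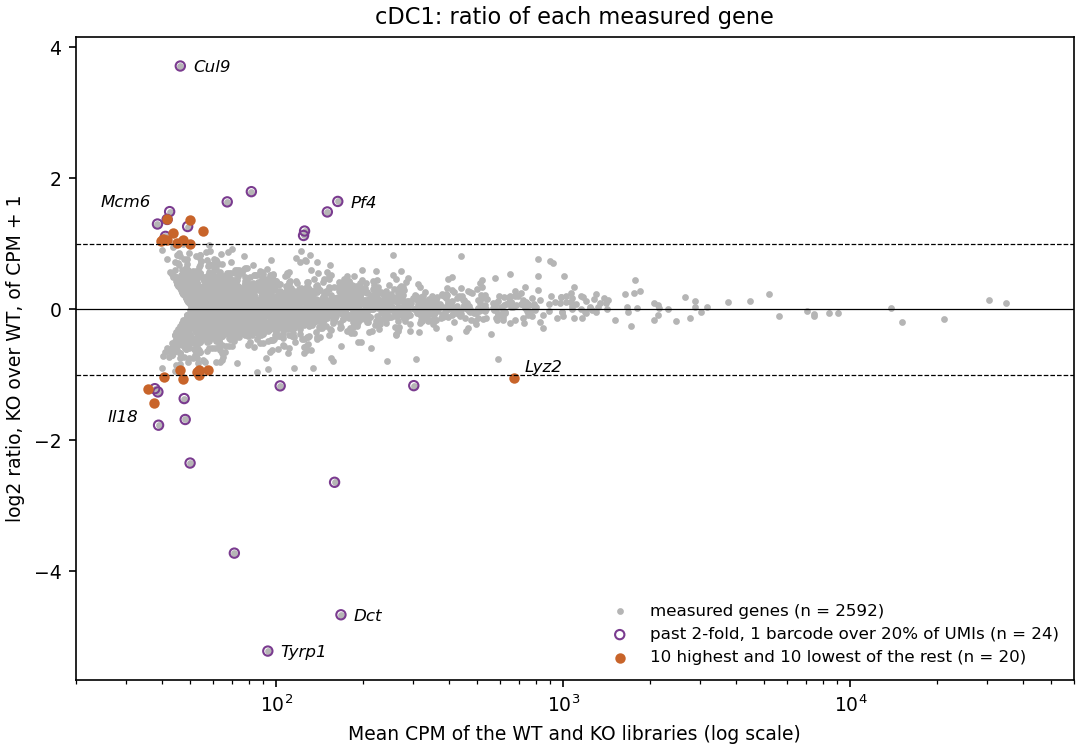
Log2 ratio of KO over WT in cDC1 against the mean CPM of both libraries (log axis) for the 2592 genes measured, with the 2-fold limits as lines. Open circles mark genes past 2-fold of which 1 barcode holds over 20% of the UMIs, and filled orange points the 10 highest and 10 lowest of the rest. Most genes lie near 0, and Lyz2 lies below the lower limit.

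Among genes not held by 1 barcode, the highest ratios were those of Mcm6, at 22.7 and 60.5 CPM (1.37 on the log2 scale), and Mcm7, at 27.5 and 72.4 CPM (1.37), both subunits of the replicative helicase. Creld2, a chaperone-like gene of the endoplasmic reticulum, came next at 33.1 and 77.6 CPM (1.20), and then Mcm5, a further helicase subunit, at 26.5 and 60.5 CPM (1.16). Slfn1 (1.08), Rrm1, a subunit of ribonucleotide reductase (1.07), and the actin crosslinker Actn1 (1.06) followed. Ogt, the O-GlcNAc transferase (1.05), the kinetochore gene Spc24 (1.02) and Rasa4, a RAS GTPase-activating protein (1.0), closed the 10, of which 9 were past 2-fold. These ratios rest on few UMIs, as with the 24 WT and 46 KO UMIs of Mcm6, whose ratio was -0.39 after thinning to 1000 UMIs per barcode. Mcm7 was at 0.059 in the members free of other lineage markers. Over the alternatives run, Creld2 ranged from 0.98 to 1.92 and Mcm5 from 0.69 to 1.48.

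The 10 lowest ratios began with Il18, a cytokine of the IL-1 family, at 54.9 (41.7 to 71.0) CPM in WT and 19.7 (11 to 32.5) CPM in KO members (-1.43). Dpm2, a subunit of dolichol-phosphate mannose synthase, followed (-1.21), and its ratio was 0.33 after thinning. Fcgr3, a low-affinity IgG receptor, was at 64.4 and 30.3 CPM (-1.06), but at -0.35 with a limit of 1 UMI of Xcr1 and Clec9a, at -0.13 in the members free of other lineage markers and at -1.85 without the members richest in macrophage RNA. Lyz2 came next, and its ratio was -0.69 in the members free of other lineage markers. Then came Ruvbl1, an AAA+ ATPase (-1.03), 1700025G04Rik (-1.0), the transcription factor gene Nfe2l1 (-0.96) and Vav1, a signalling adaptor of blood cells, at 71.0 and 36.8 CPM (-0.93). H2-DMb2, a chain of the peptide editor H2-DM, was at 75.8 and 39.5 CPM (-0.92), and the AP-1 gene Fosb at 60.6 and 31.6 CPM (-0.92). Of these 10 genes 5 were past 2-fold. Over the alternatives run, Il18 ranged from -1.60 to -1.11 and so stayed past 2-fold, Fosb ranged from -1.11 to -0.24 and Nfe2l1 from -1.24 to -0.35.

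The lineage programme was close in the libraries. The 15 cDC1 markers outside the rule summed to 7748 and 8146 CPM, a log2 ratio of 0.07 (0.02 to 0.12), and genes shared by conventional dendritic cells to 0.09 (0.07 to 0.10). Without the melanoma-bearing member these ratios were 0.01 and 0.03. The 15 transcription factors of dendritic cells summed to a log2 ratio of 0.04 (-0.02 to 0.10), with 6 of 11 measured genes higher in KO, close to the share over all genes measured, and none past 2-fold. Id2, which restrains E proteins, was at 1418 and 1430 CPM, Zbtb46, a factor of conventional dendritic cells, at 64.4 and 63.1 CPM, and Spi1 (PU.1) at 337 and 301 CPM. Zeb2, known for its part in type 2 and plasmacytoid cells, was at 61.5 (47.5 to 78.4) and 96.0 (75.3 to 121) CPM. Klf4, a factor of type 2 cells and monocytes, had 68 and 29 UMIs, at 64.4 and 38.2 CPM and a log2 ratio of -0.76 (-1.44 to -0.11). Growth factor and cytokine receptors summed to -0.06 (-0.19 to 0.07), with 3 of 9 higher in KO. Kit, the receptor of stem cell factor, was at 106 (87.3 to 128) in WT and 73.7 (55.7 to 95.7) CPM in KO members, a log2 ratio of -0.53 (-1.02 to -0.05). Chemokine receptors other than Xcr1 and Ccr7 summed to 0.14 (-0.05 to 0.33). Ccr2, the receptor of monocyte-attracting chemokines, was at 281 and 328 CPM. Cxcr3 was at 72.9 and 69.7 CPM.

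Innate sensors summed to 0.02 (-0.11 to 0.16), and 3 of 5 measured were higher in KO. Unc93b1, the chaperone of endosomal Toll-like receptors, was at 339 and 324 CPM, and Myd88, their adaptor, at 138 and 153 CPM. Tlr11, a receptor of profilin, was at 60.6 (46.7 to 77.4) and 42.1 (28.8 to 59.4) CPM, and Tlr12 at 21.8 (13.8 to 32.7) and 13.2 (6.31 to 24.2) CPM. The intervals of both overlap between the libraries.

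MHC class I genes were slightly higher in KO cDC1. They summed to 8281 CPM in WT and 9407 CPM in KO members, a log2 ratio of 0.18 (0.14 to 0.23). Of 12 measured, 11 were higher in KO, with a median of 0.20 beside 0.04 over all genes measured, and none was past 2-fold. B2m, the light chain, was at 1501 (1428 to 1577) and 1771 (1677 to 1868) CPM, H2-K1 at 1069 (1008 to 1133) and 1233 (1155 to 1314) CPM and H2-T23 (Qa-1) at 366 (330 to 404) and 451 (405 to 502) CPM. The ratio of H2-K1 was -0.16 after thinning. The immunoproteasome gene Psmb9 was at 965 (907 to 1026) and 1152 (1077 to 1231) CPM. The measured gene of the list that was lower in KO was Psme2, at 504 and 487 CPM. Tap1, of the peptide transporter and counted with the cross-presentation genes, was at 398 and 403 CPM. Class I genes share sequence, and how reads between such copies were divided is not given in the sources used here. The list ratio was 0.11 in the members free of other lineage markers and 0.05 with a limit of 1 UMI.

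Cross-presentation genes were similar to class I genes in size. They summed to 5504 and 6248 CPM, a log2 ratio of 0.18 (0.13 to 0.24), and 14 of 15 measured were higher in KO, with a median of 0.20. Cyba, a subunit of the NADPH oxidase, was at 1195 (1130 to 1263) and 1402 (1319 to 1489) CPM. The endoplasmic reticulum chaperone genes Pdia3 and Calr were at 390 and 488 CPM and at 430 and 516 CPM. Rab43, a small GTPase used by cDC1 in cross-presentation, had 30 and 29 UMIs, at 28.4 and 38.2 CPM with overlapping intervals. The list ratio was 0.11 in the members free of other lineage markers.

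MHC class II genes were nearly level. They summed to 36533 CPM in WT and 35637 CPM in KO members, a log2 ratio of -0.04 (-0.06 to -0.01), with 2 of 11 measured higher in KO and a median of -0.08. Cd74, the invariant chain, was at 13733 and 13906 CPM, H2-Ab1 at 7086 and 7004 CPM and H2-Eb1 at 7709 and 7179 CPM. H2-Ob and H2-DMb2, both of the loading machinery, had the log2 ratios -0.43 (-0.83 to -0.03) and -0.94 (-1.60 to -0.32) without an added CPM. The class II ratio stayed below 0 under every alternative run and reached -0.26 with a limit of 1 UMI. In the other dendritic gates it was -0.16 (Cd209a), -0.34 (Ccr7) and -0.26 (Siglech).

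Cathepsins and cystatins summed to 30946 and 34200 CPM, a log2 ratio of 0.14 (0.12 to 0.17), with 9 of 11 measured higher in KO and 1 past 2-fold. Cst3, cystatin C and a strong transcript of cDC1, made up most of this sum, at 28798 (28475 to 29123) and 31766 (31367 to 32170) CPM. With a limit of 1 UMI of Xcr1 and Clec9a, its ratio was -0.17 and that of the list -0.14. The list, called cathepsins below, is thus in cDC1 mostly a measure of Cst3. Ctsh was at 152 (130 to 178) and 105 (83.5 to 131) CPM. Ctsl was the gene past 2-fold, and 1 barcode held 47.4% of its UMIs in the KO library.

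Costimulation and checkpoint genes summed to 662 and 588 CPM, a log2 ratio of -0.17 (-0.35 to 0.00), with 2 of 6 measured higher in KO. In the members free of other lineage markers the ratio was 0.04. Havcr2 (TIM-3), a receptor that curbs cDC1, was at 78.6 (62.6 to 97.4) CPM in WT and 44.7 (31.0 to 62.5) CPM in KO members, a log2 ratio of -0.81 (-1.43 to -0.22). Btla was at 157 (134 to 183) and 133 (108 to 161) CPM, Cd86 at 105 (86.5 to 127) and 96.0 (75.3 to 121) CPM and Cd40 at 25.6 (16.8 to 37.2) and 25 (15 to 39) CPM. The intervals of these 3 overlap between the libraries.

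Cytokines and chemokines summed to 866 and 1022 CPM, a log2 ratio of 0.24 (0.10 to 0.38), with 5 of 7 measured higher in KO. The ratio was -0.09 (-0.25 to 0.07) without the 5 members of each library richest in macrophage RNA and 0.50 (0.23 to 0.77) in the members free of other lineage markers, so its direction rests on few members. Il12b, the inducible chain of IL-12, had 0 UMIs in either library, which allows up to 3 UMIs in each, and so had Il12a, Il6 and Il10. Cxcl9, the ligand of CXCR3 that draws T cells, was at 256 (226 to 288) and 297 (260 to 339) CPM. It was seen in 34.1% and 41.8% of the members, and 1 member held 27.0% of its UMIs in WT and 21.2% in KO. Cxcl10 was more uneven still, with 54.2% and 77.3% of its 72 and 66 UMIs in 1 member. Cxcl16 was at 84.3 and 105 CPM. Ccl4 was at 36.0 (25.5 to 49.4) and 128 (103 to 156) CPM, with 50.5% of the KO UMIs in 1 member.

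Genes induced by type I interferon were higher in KO cDC1. The list summed to 1951 CPM in WT and 2775 CPM in KO members, a log2 ratio of 0.51 (0.42 to 0.60). Of 11 measured genes 10 were higher in KO, with a median of 0.44 beside 0.04 over all genes measured. Ifi27l2a was at 602 (556 to 651) and 1027 (957 to 1102) CPM, a ratio of 0.77 (0.62 to 0.92). Zbp1, a sensor of Z-form nucleic acid, was at 104 (85.6 to 126) and 159 (132 to 190) CPM. Ifi204, a DNA sensor of the p200 family, was at 47.3 (35.1 to 62.4) and 88.1 (68.3 to 112) CPM. Isg15, a ubiquitin-like modifier, was at 152 (129 to 177) and 205 (174 to 240) CPM, with 33.1% of its WT UMIs in 1 member. Over the alternatives run, the log2 ratio of Isg15 ranged from 0.27 to 1.31 and that of Ifi204 from 0.53 to 1.67. Rsad2 (viperin) was at 21.8 (13.8 to 32.7) and 55.3 (39.8 to 74.7) CPM, with 28.6% of the KO UMIs in 1 member. Bst2 (tetherin) was near level at 321 (288 to 357) and 330 (291 to 374) CPM, with 23.6% of the WT UMIs in 1 member, and Irf7 at 108 and 98.7 CPM.

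The interferon-stimulated response element is the DNA element that many of these genes share, and the RefSeq promoters (GRCm38.p6, 250 bases before to 50 after the gene start) of Isg15, Rsad2 and Bst2 are shown because the 3 genes carry matches to it and differ in ratio. Capitals mark GAAANNGAAA on either strand, matches that overlap being run together. Isg15 (chr4:156200769-156201068, minus strand) holds 3 overlapping matches, the first of which starts 78 bases before the gene start. Rsad2 (chr12:26456403-26456702, minus strand) holds 1, which starts 120 bases before it, and Bst2 (chr8:71537423-71537722, minus strand) holds 2, the first at 130 bases before it.
Isg15: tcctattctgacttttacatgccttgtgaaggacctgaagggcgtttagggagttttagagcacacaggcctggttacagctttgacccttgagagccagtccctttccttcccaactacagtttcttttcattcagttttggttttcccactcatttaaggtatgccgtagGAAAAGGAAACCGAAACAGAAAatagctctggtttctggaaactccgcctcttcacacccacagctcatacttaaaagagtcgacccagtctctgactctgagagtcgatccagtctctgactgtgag
Rsad2: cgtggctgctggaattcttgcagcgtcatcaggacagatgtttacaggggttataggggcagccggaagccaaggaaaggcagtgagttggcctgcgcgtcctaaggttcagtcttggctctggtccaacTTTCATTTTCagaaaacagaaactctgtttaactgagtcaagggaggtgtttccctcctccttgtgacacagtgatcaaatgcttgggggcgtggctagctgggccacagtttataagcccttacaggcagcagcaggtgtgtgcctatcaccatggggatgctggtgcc
Bst2: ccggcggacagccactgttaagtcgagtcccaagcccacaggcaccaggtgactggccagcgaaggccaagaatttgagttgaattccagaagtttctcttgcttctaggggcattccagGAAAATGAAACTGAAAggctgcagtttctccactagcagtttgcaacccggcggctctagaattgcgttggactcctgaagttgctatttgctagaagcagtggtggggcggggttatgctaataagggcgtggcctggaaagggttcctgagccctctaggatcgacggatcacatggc
Among 27025 promoters of this length, 1079 (3.99%) held a match. Of the type I interferon list 20 genes had a promoter in the RefSeq table, and 10 of them held one. Of the interferon-gamma list 11 of 13 (84.6%) did, of the class I genes 4 of 13, and of the cDC1 markers 1 of 13. The match is thus found in Bst2, with a ratio of 0.04, as well as in Rsad2, with 1.34, and describes the letters only.

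Without the member rich in melanoma RNA the type I interferon ratio was 0.62, and in the members free of other lineage markers it was 0.90. The other gates had ratios of the same direction, with 0.81 (0.74 to 0.87) in Cd209a cells, 0.34 (0.26 to 0.43) in Ccr7 cells, 0.42 (0.33 to 0.50) in Siglech cells, 0.64 (0.63 to 0.66) in macrophages and 0.56 (0.52 to 0.60) in T cells. The higher level in KO was therefore not particular to cDC1. Per member the list ranged from 1.45 to 174 UMIs per 10000 in WT, with a median of 11.6, and from 2.18 to 141 in KO, with a median of 18.2. The members of the libraries overlap over nearly the whole range.

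Interferon-gamma genes were closer between the libraries and less stable. They summed to 1288 and 1493 CPM, a log2 ratio of 0.21 (0.10 to 0.33), with 7 of 9 measured higher in KO and a median of 0.34. Iigp1, an immunity-related GTPase, was at 71.0 (55.9 to 89.0) and 121 (97.6 to 148) CPM, with 25.3% of its WT UMIs in 1 member, Irgm1 at 77.6 and 112 CPM, and Irf1 at 134 and 171 CPM. Macrophage RNA moved with this ratio, and its part in it was not tested. The ratio was 0.07 without the 5 members of each library richest in macrophage markers, 0.04 in the members free of other lineage markers and -0.03 after thinning.

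**Figure D4:**
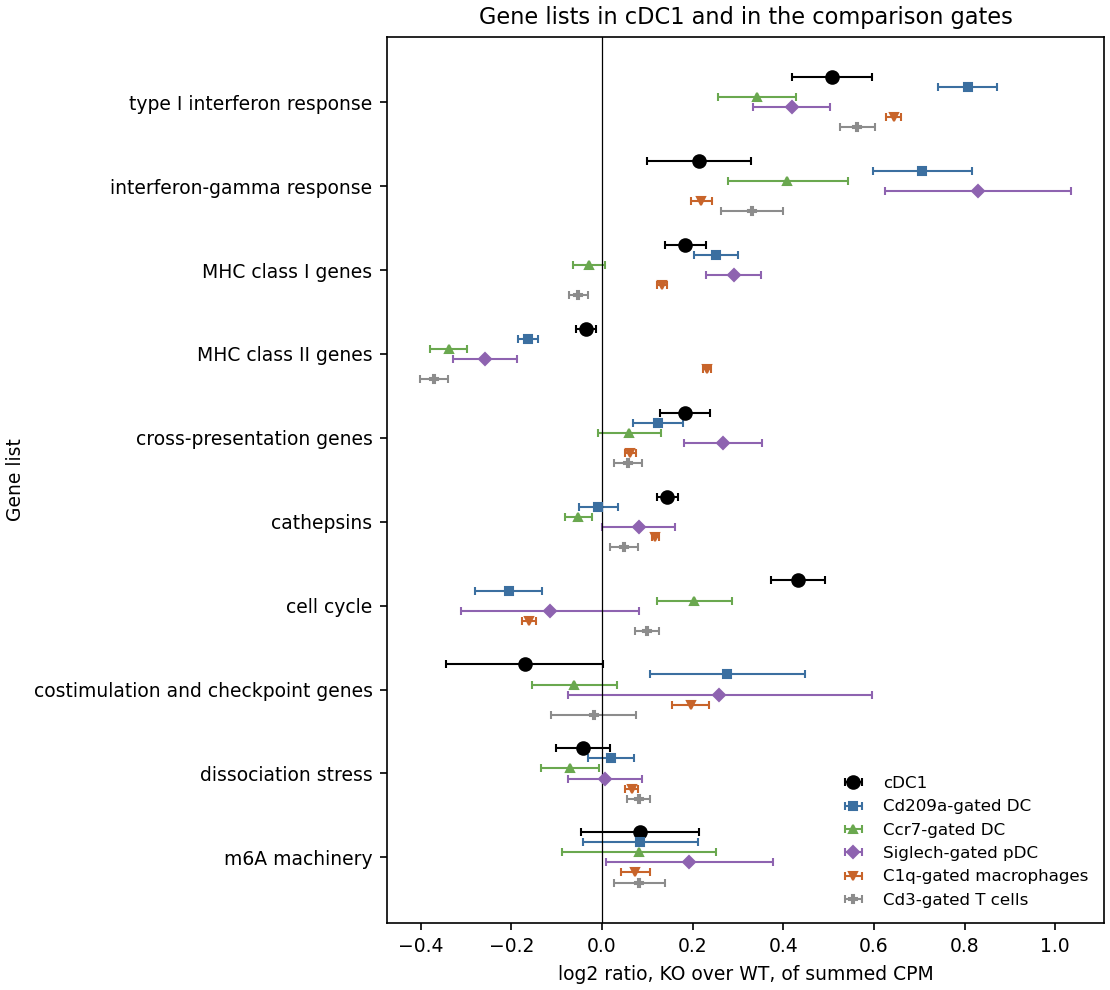
Log2 ratio of KO over WT of the summed CPM of 10 gene lists of function (rows, no marker lists), with 95% counting intervals as bars, in cDC1 (black circles) and in the 5 other gates (coloured symbols). Among these 10 lists, for cDC1 the type I interferon list (0.51) and the cell cycle list (0.43) lie farthest to the right, and the cell cycle list lies left of 0, interval included, in Cd209a cells and macrophages and right of 0 in Ccr7 cells and T cells.

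Cell cycle genes were higher in KO cDC1 in the members as a whole. The 20 genes summed to 4370 and 5894 CPM, a log2 ratio of 0.43 (0.37 to 0.49), with 13 of 14 measured higher in KO, 3 past 2-fold (Mcm5, Mcm6 and Cdk1) and a median of 0.52. In Cdk1 1 member held 20.8% of the KO UMIs. Mki67 was at 85.2 (68.5 to 105) and 159 (132 to 190) CPM, the topoisomerase gene Top2a at 92.8 (75.3 to 113) and 158 (131 to 189) CPM, and Hmgb2, a chromatin protein, at 832 (778 to 889) and 1180 (1104 to 1260) CPM. Cenpa, of the centromere, was at 87.1 and 84.2 CPM, and the cyclin gene Ccnb2 at 38.8 and 36.8 CPM. The list ratio was 0.05 in the 37 WT and 29 KO members free of other lineage markers and 0.69 with a limit of 3 UMIs of Xcr1 and Clec9a. In the other gates it was 0.20 (0.12 to 0.29) in Ccr7 cells and 0.10 (0.07 to 0.13) in T cells, -0.11 (-0.31 to 0.08) in Siglech cells, -0.21 (-0.28 to -0.13) in Cd209a cells and -0.16 (-0.18 to -0.15) in macrophages.

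The cell cycle genes lay in a minority of members. With 2 or more UMIs of Mki67 and Top2a together were 16 of 85 WT members, 18.8% (11.2 to 28.8), and 18 of 67 KO members, 26.9% (16.8 to 39.1). The log2 ratio of the shares was 0.51 (-0.34 to 1.37), a counting interval that includes no difference. With 1 library per genotype, a difference in the share of such members was not tested. These members were deeper than the rest, with medians of 15275 and 13872 UMIs against 10895 and 9414. Having 1 such UMI, and thus lying just under the limit, were 13 WT and 4 KO members. In the members above the limit Wdfy4 was at 608 CPM in WT and 612 CPM in KO, against 614 and 675 CPM in the rest of each library, and Irf8 at 2187 and 2238 CPM against 2033 and 2152 CPM. Itgae was at 230 (177 to 294) CPM in WT and 292 (231 to 363) CPM in KO, against 312 (274 to 354) and 342 (292 to 398) CPM in the rest, so its intervals overlap within each library. Cxcl9 was at 151 (109 to 204) CPM in these WT members and 293 (256 to 334) CPM in the WT rest, and Isg15 at 68.4 (41.2 to 107) and 181 (153 to 214) CPM. In the WT rest 1 member held 73 UMIs of Cxcl9 and 1 held 53 of Isg15. Without it the WT rest was at 202 (172 to 237) CPM for Cxcl9 and 123 (98.4 to 151) CPM for Isg15, and both intervals overlap those above the limit. Only the rest was treated so, and no member above the limit was left out in either library. In the KO library Cxcl9 was at 160 (117 to 215) CPM in these members and 375 (322 to 433) CPM in the rest, and Isg15 at 98.4 (64.8 to 143) and 266 (222 to 316) CPM. Without the member with the most UMIs the KO rest was at 284 (238 to 336) CPM for Cxcl9 and 214 (175 to 260) CPM for Isg15.

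**Figure D5:**
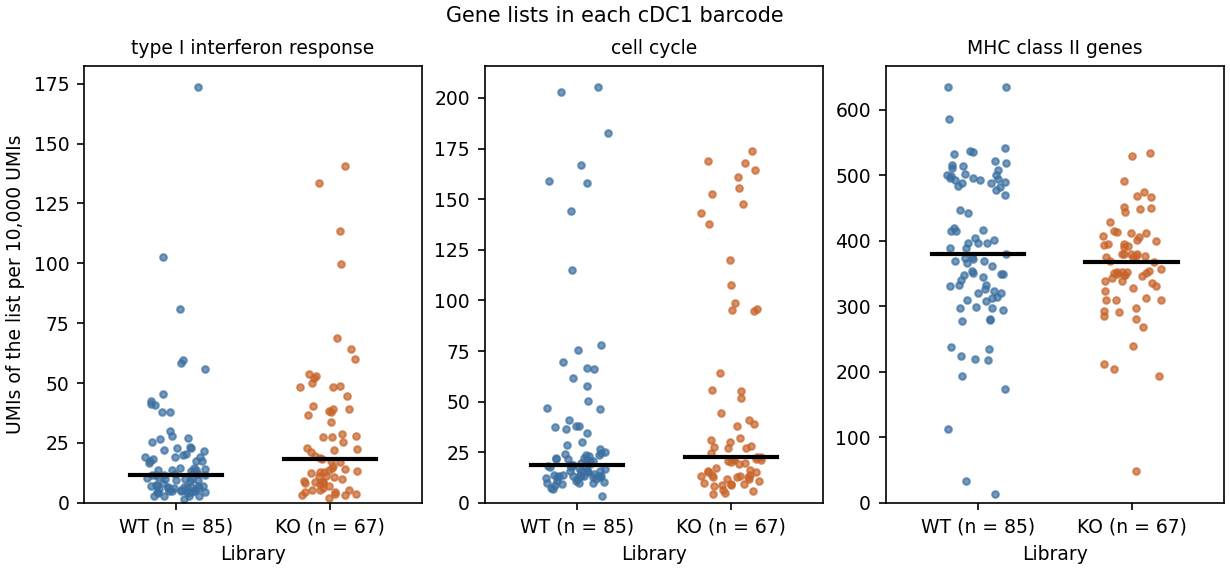
UMIs per 10000 of the type I interferon, cell cycle and MHC class II lists in each cDC1 member, WT and KO, with 1 point per barcode, the median as a line and linear axes. Members of the libraries overlap in all 3 lists, with type I interferon medians of 11.6 and 18.2.

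Genes induced by tissue dissociation were nearly level. They summed to 5384 and 5230 CPM, a log2 ratio of -0.04 (-0.10 to 0.02), with 6 of 19 measured higher in KO. Within the list Ier3, an immediate early gene, was at 151 (128 to 176) and 80.3 (61.4 to 103) CPM, and the stress factor gene Atf3 at 48.3 (36.0 to 63.5) and 92.1 (71.8 to 116) CPM. The ratio of Ier3 was 0.03 in the members free of other lineage markers, and that of Atf3 ranged from 0.73 to 1.97 over the alternatives run. NF-kB targets were higher in KO, at 1146 and 1376 CPM and a log2 ratio of 0.26 (0.14 to 0.38), with 9 of 10 measured higher in KO. A single KO member held 50.5% of the UMIs of Ccl4, the gene of the list past 2-fold, and 1 member held 58.0% of those of Il1b. The list ratio was 0.26 without the 5 members of each library richest in macrophage RNA and 0.45 in the members free of other lineage markers. In the other gates it was 0.67 (0.50 to 0.83) in Siglech cells, 0.21 (0.17 to 0.24) in T cells, 0.08 (-0.01 to 0.17) in Cd209a cells, 0.02 (-0.003 to 0.04) in macrophages and -0.08 (-0.14 to -0.02) in Ccr7 cells.

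The m6A machinery summed to 1065 and 1129 CPM, a log2 ratio of 0.08 (-0.05 to 0.21), with 3 of 6 measured higher in KO. Mettl14, the partner of METTL3, had 17 and 10 UMIs, at 16.1 (9.38 to 25.8) and 13.2 (6.31 to 24.2) CPM, and Wtap, the scaffold of the writer complex, was at 72.9 and 65.8 CPM. Brakes of the ERK pathway, the Spred, Sprouty and Dusp genes with Rasa1 and Nf1, summed to 122 and 138 CPM, with none at the level needed to be measured. Spred2 had 5 and 12 UMIs, at 4.73 (1.54 to 11) and 15.8 (8.16 to 27.6) CPM, a log2 ratio of 1.74 (0.13 to 3.59).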

How the data were processed

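The authors sorted live CD45+ cells of B16 tumours, pooled mice within a genotype and aligned the reads to mouse mm10, and the deposited values are whole-number UMI counts per gene and barcode in 1 matrix of both libraries (Cell Ranger 4.0.0 per the file headers). Barcodes were assigned to WT or KO by the deposited library index. The matrix held 31053 genes, 30934 of which matched GENCODE M21, and 0 columns of samples were left unused. The members, markers and gene lists were chosen with earlier results of these data known.

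UMI counts were summed per library over the members and divided by their total (1056089 in WT, 760110 in KO) to give CPM. Rankings left out mitochondrial, ribosomal protein, haemoglobin and rule genes. Named genes were members of the fixed lists, the 15 genes highest in cDC1 over other barcodes, and the 10 highest and 10 lowest ratios, leaving out genes of which 1 barcode held over 20% of the UMIs in the library with the higher CPM. Levels have exact Poisson intervals, shares Clopper-Pearson intervals and ratios conditional binomial intervals, and log-binomial ones for shares, all at 95% and for counting error only. Cxx1b, Ifi30 and Mx2 were not analysed here. No doublet caller was run, so doublets were treated only through the exclusions of the rule and the alternatives. The summing and ratio steps were tested on simulated data. The alternatives were other UMI limits of the rule, depth and mitochondrial limits, thinning to 1000 UMIs, edgeR's TMM and median-of-ratios scaling, other CPM minimums and pseudocounts, and members left out. Python 3.11.15, NumPy 2.4.6, SciPy 1.17.1, pandas 2.3.3, R 4.3.3 and edgeR 4.0.16 were used.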

Additional observations from a re-analysis of the deposited data

Results flagged for a closer look

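Among the 10 gene lists of function run under every alternative that applied, the summed level of a list lay in 5 cases on opposite sides of 0 in cDC1 and in another gate with both 95% counting intervals clear of 0, as log2 ratios of KO over WT, and none of these differences was tested, since each genotype had 1 library. MHC class I genes were at 0.18 in cDC1 and -0.052 in T cells. They were also above 0 in Cd209a cells (0.25), Siglech cells (0.29) and macrophages (0.13), and at -0.03 (-0.06 to 0.01) in Ccr7 cells. MHC class II genes were at -0.04 in cDC1 and 0.23 in macrophages. Cathepsins and cystatins were at 0.14 in cDC1 and -0.052 in Ccr7 cells, with most of the cDC1 sum from Cst3. With a limit of 1 UMI of Xcr1 and Clec9a, the cDC1 ratio of this list was -0.14. Cell cycle genes were at 0.43 in cDC1, -0.21 in Cd209a cells and -0.16 in macrophages. Lists outside these 10 did so as well, such as cytokines and chemokines (0.24 in cDC1 and -0.19 in Ccr7 cells) and NF-kB targets (0.26 and -0.079). The cytokine ratio in cDC1 was -0.09 (-0.25 to 0.07) without the 5 members of each library richest in macrophage RNA. No cells were left out of the other gates in this way, and Ccr7 cells held 25 WT and 649 KO UMIs of melanoma markers.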

How the results depend on the processing

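With 1 library per genotype no result was tested, so an alternative is read by whether it moved a value outside the counting interval. The share of cDC1 stayed within its interval under every alternative run for it, at log2 ratios of -0.88 to -0.73 of the kept barcodes and -0.72 to -0.52 of the dendritic barcodes. Both scalings shifted every ratio alike, by -0.03 (TMM) and -0.02 (median of ratios). No paired analysis was possible because each genotype has 1 library. The cause of the moves below was not tested. Of 53 named genes 17 fell under 3 UMIs after thinning and got no value there. Leaving out the melanoma-bearing member or the members richest in macrophage RNA was chosen after seeing the data, as were the left-out values of lists beyond the 10 of function below and those of Cxcl9 and Isg15 without 1 member.

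Genes past 2-fold numbered 21 higher and 17 lower in KO. The higher count was 37 with 3 UMIs of Xcr1 and Clec9a and 34 with 1 UMI, 117 in the members free of other lineage markers, 146 after thinning to 1000 UMIs, 111 with a minimum of 20 CPM and 6 with 100 CPM. The lower count was 8 with 1 UMI, 27 with both genes required, 69 in the members free of other lineage markers, 8 with Ccr7 not used, 7 without the 5% deepest members, 6 without the melanoma-bearing member, 106 after thinning, 87 with 20 CPM and 7 with 100 CPM. Fewer members or UMIs, or a lower minimum, admit genes resting on fewer UMIs.

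In the members free of other lineage markers the log2 ratios were 0.90 for type I interferon, 0.042 for interferon-gamma, 0.11 for MHC class I, -0.12 for MHC class II, 0.11 for cross-presentation, 0.052 for cathepsins, 0.051 for the cell cycle, 0.040 for costimulation, 0.12 for dissociation stress and 0.33 for m6A genes. After thinning they were -0.029 for interferon-gamma, 0.14 for MHC class I, 0.094 for cathepsins, 0.65 for the cell cycle, -0.39 for costimulation, 0.023 for dissociation stress and 0.25 for m6A genes. With 1 UMI of Xcr1 and Clec9a they were 0.40 for interferon-gamma, 0.045 for MHC class I, -0.26 for MHC class II, 0.094 for cross-presentation, -0.14 for cathepsins and 0.36 for the cell cycle. With 3 UMIs they were 0.11 for cathepsins and 0.69 for the cell cycle, and with both genes required 0.067 for interferon-gamma and 0.37 for the cell cycle. With Ccr7 not used they were 0.39 for type I interferon, 0.10 for MHC class I, -0.14 for MHC class II and 0.063 for cathepsins. Without the 5% deepest members they were 0.69, 0.34, -0.10 and 0.11 for type I interferon, interferon-gamma, MHC class II and cathepsins. Without the melanoma-bearing member they were 0.62, -0.10 and 0.10 for type I interferon, MHC class II and cathepsins. Without the members richest in macrophage RNA they were 0.068 for interferon-gamma and 0.17 for cathepsins. As a mean over barcodes they were 0.087, -0.098, 0.088 and 0.068 for interferon-gamma, MHC class II, cathepsins and dissociation stress, and under TMM -0.067 and 0.11 for MHC class II and cathepsins. Among those of the 53 genes run under the alternatives whose counting interval in the members lay on 1 side of 0, the ratio changed sign 10 times, and other genes named in the text were not run. Txndc16 was at -0.18 with 1 UMI, -0.31 in the members free of other lineage markers and -0.29 after thinning. Tnni2 (-0.19) and Ier3 (0.026) did so in the members free of other lineage markers, Mcm6 (-0.39), Dpm2 (0.33) and H2-K1 (-0.16) after thinning, and Naaa (-0.12) and Cst3 (-0.17) with 1 UMI. Named genes whose interval held 0 changed sign as well, such as Itgae (down to -0.20), Wdfy4 (down to -0.29) and Gcsam (up to 0.75).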
